A study of Mus musculus with 2 samples.

Results

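The BCL2 family was described in single cells of 2 mouse tumors of small cell lung cancer, through 10 members looked up by gene symbol among the 27998 genes of the deposited lists. The members were the anti-apoptotic genes *Bcl2*, *Bcl2l1*, *Bcl2l2* and *Mcl1*, the effector *Bak1*, and the BH3-only genes *Bcl2l11*, *Bik*, *Bid*, *Bad* and *Hrk*. TKO1 and TKO2 are single tumors taken from the lungs of 1 mouse each. Both mice carried deletions of *Rb1*, *Trp53* and *Rbl2* (Rb-/-; Trp53-/-; Rbl2-/-) and a Rosa26 reporter of membrane Tomato or membrane GFP, and their strain was a mixture of 129/SvOla, 129/SVJ and C57BL/6. The tumors had been induced by an adenovirus that expresses Cre from the CMV promoter, which is not restricted to a cell type, and were collected 7 months later, at an age of 8 to 9 months. Each tumor gave 1 library of sorted single cells on the 10x Chromium platform. There was no replicate and no untreated tissue, so a difference between TKO1 and TKO2 is a difference between 2 libraries. No test was possible, and each interval below is a 95% interval that covers counting error only.

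The BCL2 family controls whether mitochondria release the factors that start apoptosis. The effectors Bax, Bak and Bok open the outer mitochondrial membrane. The anti-apoptotic members bind and restrain Bax and Bak. The BH3-only proteins either bind the anti-apoptotic members or act on Bax and Bak. Much of this control acts on proteins and on their binding, which RNA counts do not show. Small cell lung cancer is a neuroendocrine tumor, and drugs that mimic BH3-only proteins have been tried in it.

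The tables held 5285038 unique molecular identifiers (UMIs, each standing for a captured RNA molecule) in 4514 barcodes of TKO1 and 8291430 UMIs in 3816 barcodes of TKO2. Barcodes with more than 500 detected genes numbered 3193 and 3568, with medians of 1223 and 1960 UMIs. The libraries shared 22 barcodes, 11 of them among the retained ones. After clustering of each tumor by itself, 2238 cells of TKO1 and 3381 cells of TKO2 lay in clusters that carried neuroendocrine markers. These are called tumor cells below. Macrophage-like clusters held 98 and 121 cells, and a club-like cluster of TKO1 held 105 cells. All 15 neuroendocrine markers had UMIs in the tumor cells of both tumors, but their summed level was 21821 UMIs per 1000000 (CPM, counts scaled to that total) in TKO1 and 1945 CPM in TKO2. Deleted genes were still counted in tumor cells, with *Rb1* at 81.5 and 15.2 CPM in TKO1 and TKO2. *Rbl2* had 8.82 and 1.80 CPM and *Trp53* 48.4 and 63.0 CPM. A count summed over a gene cannot tell a transcript that lacks the deleted exons from an intact one, so the deletions were not checked. Clusters 3 and 4 of TKO1 (382 and 370 cells) and cluster 9 of TKO2 (66 cells) were left out of the tumor cells. Among their 10 leading genes, markers of another cell type outnumbered neuroendocrine ones, in cluster 3 by 1 fibroblast marker, *Dcn*. They also carried neuroendocrine markers, 13, 12 and 12 of the 15 at least 2-fold above macrophages. Whether they hold tumor cells was not settled. Of the UMIs of tumor cells, 10.8% in TKO1 and 23.1% in TKO2 came from ribosomal protein genes, and the median gene had a log2 ratio of CPM of 0.35 (TKO1 over TKO2). Ratios between tumors are therefore also given relative to that median.

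All 10 members were detected in the tumor cells of both tumors, with 1134 UMIs (345 CPM, interval 325 to 366) in TKO1 and 1999 UMIs (258 CPM, 246 to 269) in TKO2. Their levels differed between the tumors in both directions. Of the 10, *Bik* and *Bcl2l1* were at least 2-fold higher in TKO1 relative to the median gene, where 22.2% of the 12721 genes with at least 10 UMIs were. *Bcl2*, *Bid* and *Hrk* were at least 2-fold higher in TKO2, where 17.8% of all genes were. The median of the members was -0.35 on that relative log2 scale, against 0 for all genes. The set as a whole was thus spread to both sides of the median gene.

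The promoters of *Bcl2* and *Bid*, the members with the largest ratios toward TKO2, and of *Bcl2l1*, which was higher in TKO1, are shown because these genes differed most in opposite directions among the members with an entry. Each sequence is the 250 bases before a transcription start, taken from RefSeq (GRCm38.p6) and read 5′ to 3′ on the strand of the gene. Capitals mark the GC box GGGCGG or its reverse complement CCGCCC, the letters that Sp1-like factors bind.
*Bcl2*, chr1:106714291-106714540, minus strand: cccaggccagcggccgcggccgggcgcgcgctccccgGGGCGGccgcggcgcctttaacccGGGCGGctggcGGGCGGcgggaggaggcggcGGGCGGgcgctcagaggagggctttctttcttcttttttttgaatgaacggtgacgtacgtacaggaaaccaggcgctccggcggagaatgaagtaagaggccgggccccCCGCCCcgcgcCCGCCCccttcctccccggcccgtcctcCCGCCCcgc
*Bid*, chr6:120916825-120917074, minus strand: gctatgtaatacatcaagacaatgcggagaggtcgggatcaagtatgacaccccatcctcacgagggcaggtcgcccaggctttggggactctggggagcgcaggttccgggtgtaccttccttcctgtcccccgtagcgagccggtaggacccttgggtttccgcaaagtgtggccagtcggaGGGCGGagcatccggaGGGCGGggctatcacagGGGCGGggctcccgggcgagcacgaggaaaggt
*Bcl2l1*, chr2:152831729-152831978, minus strand: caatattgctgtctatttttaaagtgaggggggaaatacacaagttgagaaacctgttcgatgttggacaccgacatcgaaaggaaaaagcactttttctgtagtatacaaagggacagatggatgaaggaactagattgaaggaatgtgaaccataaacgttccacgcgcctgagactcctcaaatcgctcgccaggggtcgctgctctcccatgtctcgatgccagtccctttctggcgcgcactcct
The *Bcl2* window held 7 GC boxes and the *Bid* window 3, and the *Bcl2l1* window held 0, as did the other windows of that gene. Of the windows not shown, those of *Bcl2l11* held 3 and 2, those of *Bad* 3 and 0, and that of *Hrk* 2. *Mcl1* and *Bcl2l2* had 1 each and *Bak1* 0. A link between GC boxes and the ratios was not tested. Among all 32851 promoters of the same length, 32.7% held a GC box. The E-box CACGTG, which 6.02% of all promoters held, and the letters TTCCCGCC of an E2F site, which 1.86% held, were found on neither strand of any of the 13 windows of 9 members. The E2F letters can share bases with a GC box. *Bik* is named only.

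The anti-apoptotic members were dominated by *Mcl1*, whose short-lived protein restrains Bak and the BH3-only proteins. *Mcl1* (ENSMUSG00000038612, chromosome 3, 95658788 to 95663176, plus strand, GRCm38) had 192 UMIs in the tumor cells of TKO1 and 269 in those of TKO2. These gave 58.4 CPM (50.4 to 67.3) and 34.7 CPM (30.6 to 39.1), a log2 ratio of 0.75 (0.48 to 1.03) that was 0.40 relative to the median gene. The intervals did not overlap, but the difference stayed within 2-fold.

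*Bcl2l1*, which encodes BCL-XL (ENSMUSG00000007659, chromosome 2, 152780668 to 152831728, minus strand), had 126 UMIs in TKO1 and 100 in TKO2. Its level was 38.3 CPM (31.9 to 45.6) in TKO1 and 12.9 CPM (10.5 to 15.7) in TKO2. The log2 ratio was 1.57 (1.18 to 1.97), and 1.22 relative to the median gene. *Bcl2* itself, which encodes the founding member of the family (ENSMUSG00000057329, chromosome 1, 106538178 to 106714274, minus strand), went the other way, with 16 UMIs in TKO1 and 143 in TKO2. It had 4.87 CPM (2.78 to 7.91) in TKO1 and 18.4 CPM (15.5 to 21.7) in TKO2. The log2 ratio of *Bcl2* was -1.92 (-2.77 to -1.17), and -2.27 relative to the median gene. *Bcl2* and *Bcl2l1* thus took opposite places in the tumors.

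*Bcl2l2*, which encodes BCL-W (ENSMUSG00000089682, chromosome 14, 54883377 to 54888234, plus strand), was the least abundant anti-apoptotic member in TKO2 and had only 33 and 36 UMIs. Its level was 10.0 CPM (6.91 to 14.1) in TKO1 and 4.64 CPM (3.25 to 6.42) in TKO2, a log2 ratio of 1.11 (0.39 to 1.84), which was 0.76 relative to the median gene. The gene overlaps on the same strand with *Gm20521*, a gene listed at 0 UMIs in both tumors, and how reads of the shared part were assigned is not given in the sources used here.

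Summed over the 4 anti-apoptotic members, tumor cells had 112 CPM (101 to 124) in TKO1 and 70.6 CPM (64.8 to 76.8) in TKO2. *Mcl1* made up close shares of this sum, 52.3% (exact Clopper-Pearson interval 47.1 to 57.5) in TKO1 and 49.1% (44.8 to 53.4) in TKO2. The rest was divided differently. *Bcl2l1* took 34.3% (29.5 to 39.4) of the sum in TKO1 and 18.2% (15.1 to 21.7) in TKO2. *Bcl2* took 4.36% (2.51 to 6.98) in TKO1 and 26.1% (22.5 to 30.0) in TKO2. In TKO2 *Bcl2* thus had more UMIs than *Bcl2l1*. The intervals of these shares did not overlap, while their CPM intervals overlapped narrowly. Per kb of exon the order turned, with 2.01 CPM for *Bcl2* and 2.81 CPM for *Bcl2l1*, which assumes that counts scale with exon length.

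**Figure D1:**
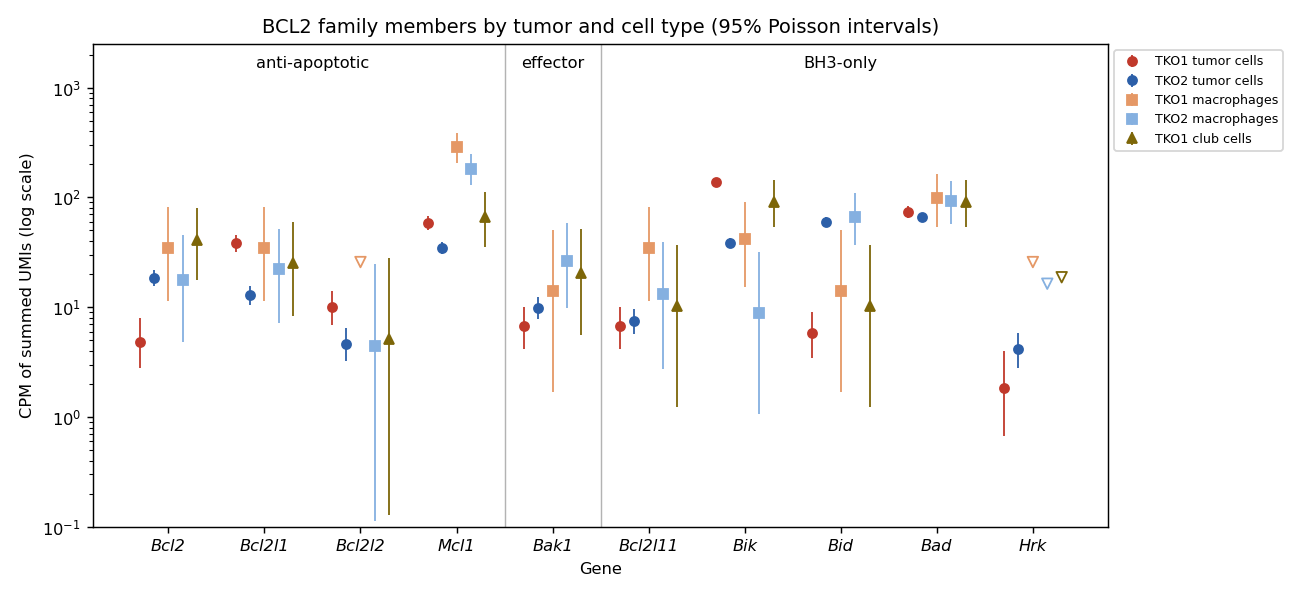
Level of each member in CPM (log axis) in the tumor cells and macrophages of TKO1 and TKO2 and the club cells of TKO1. Filled symbols are the summed UMIs of a group with their 95% Poisson interval, and an open triangle is the upper limit of a group with 0 UMIs. *Bid* and *Bcl2* are higher in the tumor cells of TKO2, *Bik* and *Bcl2l1* in those of TKO1, and *Mcl1* is highest in macrophages.

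*Bak1* (ENSMUSG00000057789, chromosome 17, 27019810 to 27029009, minus strand), the effector among the members, was low in both tumors. It had 22 UMIs and 6.69 CPM (4.19 to 10.1) in TKO1 and 77 UMIs and 9.92 CPM (7.83 to 12.4) in TKO2. The intervals overlapped, and the log2 ratio was -0.57 (-1.32 to 0.13). Relative to the median gene it was -0.92, a shift of 0.35 that puts the whole interval below 0, so whether *Bak1* differed turned on the scaling. It passed 2-fold, at -1.21, without the cells of the highest Scrublet (doublet) scores. The effector genes of the other list were far better covered. *Bax* had 497 and 535 CPM and *Bok* 181 and 205 CPM, both within 2-fold between the tumors.

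The largest ratio of all members was that of *Bid*, whose protein is cut by caspase-8 and carries the signal of death receptors to the mitochondria. *Bid* (ENSMUSG00000004446, chromosome 6, 120891930 to 120916853, minus strand) had 19 UMIs in the tumor cells of TKO1 and 466 in those of TKO2. Its level was 5.78 CPM (3.48 to 9.03) in TKO1 and 60.0 CPM (54.7 to 65.8) in TKO2. The log2 ratio was -3.38 (-4.12 to -2.72), and -3.73 relative to the median gene, which is 13.2-fold higher in TKO2. Over all genes tested, 95% of the relative log2 ratios lay between -3.07 and 4.21, so *Bid* was outside that range. Its 3′ end overlaps *Bcl2l13* on the opposite strand, and the strand setting of the counting is not given in the sources used here. *Bcl2l13* had 17.7 CPM in TKO1 and 25.3 CPM in TKO2, a log2 ratio of -0.52 (-0.97 to -0.09).

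*Bik* (ENSMUSG00000016758, chromosome 15, 83526862 to 83544634, plus strand), which encodes a BH3-only protein of the endoplasmic reticulum, was the most abundant member in TKO1. It had 454 UMIs in TKO1 and 299 in TKO2, or 138 CPM (126 to 151) and 38.5 CPM (34.3 to 43.2). The log2 ratio was 1.84 (1.63 to 2.06), and 1.49 relative to the median gene. *Bad* (ENSMUSG00000024959, chromosome 19, 6941861 to 6951899, plus strand), whose protein is held inactive by phosphorylation downstream of growth factors, was close between the tumors. It had 244 UMIs in TKO1 and 519 in TKO2, which gave 74.2 CPM (65.2 to 84.2) and 66.9 CPM (61.2 to 72.9). Its log2 ratio of CPM was 0.15 (-0.07 to 0.37) and turned to -0.20 relative to the median gene, so it had no direction that held under both scalings.

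The other BH3-only members were sparse. *Bcl2l11*, which encodes the activator BIM (ENSMUSG00000027381, chromosome 2, 128126038 to 128162547, plus strand), had 22 and 58 UMIs, at 6.69 CPM (4.19 to 10.1) in TKO1 and 7.47 CPM (5.68 to 9.66) in TKO2. *Hrk*, a BH3-only gene best known from neurons (ENSMUSG00000046607, chromosome 5, 118164648 to 118189478, plus strand), had 6 UMIs in TKO1 and 32 in TKO2. These gave 1.83 CPM (0.670 to 3.97) and 4.12 CPM (2.82 to 5.82), and the interval of the log2 ratio ran from -2.72 to 0.10. *Hrk* passed 2-fold relative to the median gene, but at this depth its unshifted ratio could not be told from 1.

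The BH3-only members were summed without *Bbc3* (240 UMIs in TKO1 and 334 in TKO2) and *Bmf* (36 and 6), BH3-only genes outside the members. The sum over the 5 members was 227 CPM (211 to 244) in TKO1 and 177 CPM (168 to 187) in TKO2. Its makeup was exchanged between *Bik* and *Bid*. *Bik* accounted for 60.9% (57.3 to 64.5) of the sum in TKO1 and 21.8% (19.6 to 24.0) in TKO2. *Bid* accounted for 2.55% (1.54 to 3.95) in TKO1 and 33.9% (31.4 to 36.5) in TKO2. *Bad* held 32.8% (29.4 to 36.3) and 37.8% (35.2 to 40.4). UMIs of the 5 BH3-only members stood to those of the 4 anti-apoptotic members at 2.03 (1.79 to 2.31) in TKO1 and 2.51 (2.27 to 2.77) in TKO2. These intervals overlapped narrowly.

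Levels were also divided by exon length, which assumes that counts scale with it. *Bik* then led in the tumor cells of TKO1 at 86.8 CPM per kb. *Bad* followed at 29.0, *Mcl1* at 17.1 and *Bcl2l1* at 8.36. In TKO2 *Bad* led at 26.1 CPM per kb, followed by *Bik* at 24.2, *Bid* at 16.9 and *Mcl1* at 10.1. On the CPM scale, the intervals of neighbours did not overlap between *Bik* and *Bad*, between *Mcl1* and *Bcl2l1* and between *Bcl2l1* and *Bcl2l2* in TKO1. The 6 lowest members of TKO1, from *Bcl2l2* down to *Hrk*, each overlapped the next. In TKO2 the breaks came between *Bid* and *Bik* and between *Mcl1* and *Bcl2*. The libraries count RNA from one end and a UMI stands for a captured molecule, so counts need not scale with length. The order per kb thus rests on the length model, which was not tested. In TKO2 *Bid* was above *Bik* by CPM (60.0 against 38.5) and below it per kb.

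Other apoptosis genes, in 2 fixed lists, were read in the same comparison. Of the 15 other genes of the BCL2 family, 9 had at least 10 UMIs, 5 were at least 2-fold higher in TKO1 and 0 in TKO2, at a median relative log2 ratio of 1.56, against 22.2% and 17.8% of all genes. The 5 were *Bmf*, a BH3-only gene (11.0 and 0.773 CPM in TKO1 and TKO2), *Bcl2l12* (57.2 and 10.4 CPM), *Bcl2l14* (43.8 and 0.515 CPM), *Bnip3* (922 and 245 CPM) and *Bnip3l* (546 and 139.9 CPM). *Bnip3* and *Bnip3l* are known hypoxia targets that act in the removal of mitochondria. *Bbc3*, which encodes the BH3-only protein PUMA, had 73.0 and 43.0 CPM and stayed within 2-fold.

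Of the 18 caspase pathway genes, all 18 had at least 10 UMIs, 6 were at least 2-fold higher in TKO1 and 3 in TKO2, and the median was 0.49. Against 22.2% and 17.8% of all genes, the number higher in TKO2 was near the background. *Casp8*, which encodes the caspase that cuts Bid, had 160 UMIs and 48.7 CPM in TKO1 against 38 UMIs and 4.90 CPM in TKO2. Its log2 ratio of 3.31 (2.80 to 3.86) was thus opposite to that of *Bid*. *Casp9*, *Birc3* and *Cflar* were among the others higher in TKO1. *Cycs*, which encodes cytochrome c, *Htra2* and *Birc5*, which encodes survivin, were higher in TKO2 by a relative log2 ratio of -1.05, -1.08 and -1.19, just beyond 2-fold. On the unshifted scale none of the 3 reached 2-fold. The other 9 stayed within 2-fold relative to the median gene, although on the unshifted scale *Birc2* and *Birc6* were past it, at log2 ratios of 1.01 and 1.12. Among the 9 *Diablo*, which encodes an antagonist of the inhibitors of apoptosis, had 131 and 123 CPM, and the inhibitors *Xiap*, *Birc2* and *Birc6* had 71.8 and 41.1, 54.2 and 26.8, and 71.2 and 32.9 CPM. *Endog* had 89.4 and 49.0 CPM, *Aifm1* 21.9 and 22.6 CPM, *Fadd* 14.6 and 12.1 CPM and *Casp6* 12.5 and 17.0 CPM.

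**Figure D2:**
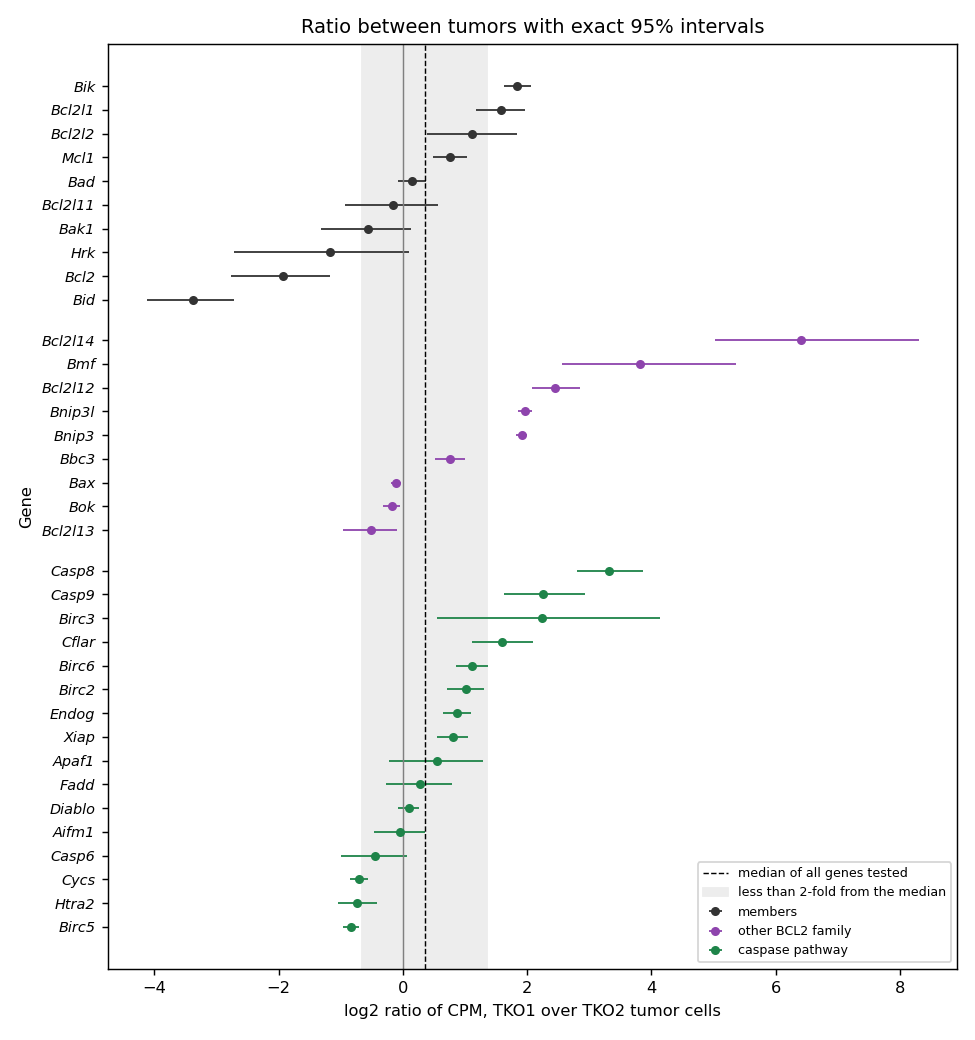
Log2 ratio of CPM between the tumor cells of TKO1 and TKO2 for the members (black), the other BCL2 family genes (purple) and most of the caspase pathway genes (green) with at least 10 UMIs, with exact 95% intervals. The dashed line is the median of all genes tested, 0.35, and the grey band spans less than 2-fold from it. *Bid* and *Bcl2* lie left of the band, and *Bik* and *Bcl2l1* right of it.

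The macrophage-like clusters had 44856 and 37303 CPM of macrophage markers in TKO1 and TKO2. They also held markers of T and NK cells (371 and 1034 CPM), neutrophils (923 and 200 CPM) and B cells (69.9 and 169 CPM). Other immune cells in these clusters were not separated from the macrophages. Macrophages, in this sense, were set apart by *Mcl1*. It had 41 UMIs in the 98 macrophages of TKO1 and 41 UMIs in the 121 macrophages of TKO2, which gave 287 CPM (206 to 389) and 182 CPM (131 to 247). The log2 ratio to tumor cells of the same library was 2.30 (1.77 to 2.79) in TKO1 and 2.39 (1.88 to 2.87) in TKO2. Among the 4 anti-apoptotic members, *Mcl1* took 80.4% (66.9 to 90.2) of the UMIs of macrophages in each tumor. This share leaves out *Bcl2a1b*, an anti-apoptotic gene outside the members, which had more UMIs in macrophages than *Mcl1*, 52 in TKO1 and 99 in TKO2. *Bcl2* had 5 and 4 UMIs there, *Bcl2l1* 5 and 5, and *Bcl2l2* 0 and 1.

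Among members with a UMI in macrophages, *Bik* had the lowest ratio to tumor cells, with 6 UMIs (42.0 CPM, 15.4 to 91.3) in TKO1 and 2 UMIs (8.88 CPM, 1.08 to 32.1) in TKO2. These were 30.4% and 23.0% of its level in the tumor cells. Neuroendocrine markers, which macrophages should lack, stood in macrophages at a median of 20.8% (14.8 to 22.1 over 6 markers) of the tumor cell level in TKO1 and 27.3% (20.1 to 40.2 over 4 markers) in TKO2. The *Bik* level of macrophages was above the range of these markers in TKO1, on 6 UMIs, and within it in TKO2, and it is not read as expression. *Calca* and *Resp18*, which were rare in the tumor cells of TKO2 (136 and 52 UMIs), stood in macrophages of TKO2 at 431% and 464% of the tumor cell level. *Bid* in macrophages of TKO2 had 15 UMIs (66.6 CPM, 37.3 to 109.8) and stood at 111% of the tumor cell level, above each of the 4 well-covered markers. *Bad* had 14 and 21 UMIs in macrophages, at 97.9 CPM (53.5 to 164) and 93.2 CPM (57.7 to 143), with intervals that overlapped those of the tumor cells in TKO1 and TKO2.

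Relative to the median of well-covered genes, 6 of 9 tested members were at least 2-fold higher in macrophages of TKO1 and 1, *Bik*, in tumor cells. Among all 11544 genes these shares were 22.9% and 10.5%. In TKO2, 5 of 10 were higher in macrophages, with 24.9% of 11983 genes, and again *Bik* in tumor cells, with 8.5% of genes. Without the shift by the median, the 5 fell to 2, *Mcl1* and *Bak1*. Many of these members had 6 UMIs or fewer in macrophages, so the counts of members turn on sampling. Of the genes that the rule for the members did not include, *Bcl2a1b*, an anti-apoptotic gene of blood cells with near-identical copies, had 52 and 99 UMIs in macrophages (364 and 439 CPM) against 0 and 1 UMI in all tumor cells. UMIs of the 5 BH3-only members stood to UMIs of the 4 anti-apoptotic members at 0.529 (0.319 to 0.860) in macrophages of TKO1. In those of TKO2 the ratio was 0.804 (0.520 to 1.24), and both were below the intervals of the tumor cells.

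The 105 club cells of TKO1 had 13 UMIs of *Mcl1* (66.1 CPM, 35.2 to 113) and 18 each of *Bik* and *Bad* (91.5 CPM, 54.2 to 145), and these intervals overlapped those of the tumor cells. *Bcl2* stood out with 8 UMIs, at 40.7 CPM (17.6 to 80.2) against 4.87 CPM in tumor cells, a log2 ratio of 3.06 (1.63 to 4.37). Among 9 tested members, 6 were at least 2-fold higher in club cells relative to well-covered genes, where 20.7% of 11430 genes were, and 0 in tumor cells, where 8.32% were. Without the shift by the median of -0.84, 2 members, *Bcl2* and *Bak1*, were past 2-fold. Neuroendocrine markers stood in club cells at a median of 32.5% of the tumor cell level (23.0 to 61.2), and *Bik* at 66.3%.

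Cells of TKO2 had more UMIs each, so shares of cells with a UMI were compared after each cell was thinned to 1000 UMIs. This left 1659 tumor cells of TKO1, with 579 shallower cells left out, and 3020 of TKO2, with 361 left out. Before thinning, the median tumor cell had 1250 UMIs in TKO1 and 1983 in TKO2, and the median macrophage had 1314 and 1639. At the fixed depth, 25.9% (23.8 to 28.0) of tumor cells in TKO1 and 21.5% (20.1 to 23.0) in TKO2 had a UMI of any member. Without thinning these were 35.1% and 38.7%, so the order of the tumors turned with depth.

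*Bid* was seen in 14 of 1659 cells of TKO1, or 0.844% (0.462 to 1.41), and in 181 of 3020 cells of TKO2, or 5.99% (5.17 to 6.90). *Bik* was seen in 10.2% (8.77 to 11.7) and 3.54% (2.91 to 4.27). *Bcl2* was seen in 0.241% (0.0657 to 0.616) and 1.99% (1.52 to 2.55). *Bcl2l1* was seen in 3.38% (2.56 to 4.36) and 1.09% (0.753 to 1.53). The unthinned shares of these members were 0.849% and 11.9% for *Bid*, 15.1% and 7.28% for *Bik*, 0.670% and 3.90% for *Bcl2* and 5.18% and 2.72% for *Bcl2l1*. The shares thus ran in the same direction as the CPM at both depths. *Bad* was close, at 6.93% (5.76 to 8.26) and 6.56% (5.70 to 7.50).

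A UMI of any anti-apoptotic member was seen in 9.34% (7.99 to 10.8) of tumor cells in TKO1 and 6.39% (5.54 to 7.32) in TKO2 at the fixed depth. In macrophages the shares were 28.0% (18.7 to 39.1) of 82 and 21.4% (14.2 to 30.2) of 112 cells. *Mcl1* alone was seen in 24.4% (15.6 to 35.1) and 16.1% (9.81 to 24.2) of macrophages, against 5.24% (4.22 to 6.43) and 3.08% (2.49 to 3.76) of tumor cells. *Resp18*, a neuroendocrine gene that macrophages should lack, was seen in 14.6% (7.80 to 24.2) of macrophages and 67.8% (65.4 to 70.0) of tumor cells of TKO1. *Mcl1* thus differed from *Resp18* in being more frequent in macrophages than in tumor cells of TKO1. In TKO2 *Resp18* was seen in 1.79% (0.217 to 6.30) of macrophages and 0.530% (0.303 to 0.859) of tumor cells, both far below the share of macrophages with *Mcl1*. *Bik* was seen in 3 of 82 macrophages of TKO1 and in 0 of 112 of TKO2, with an exact upper limit of 3.24%. *Hrk* was seen in 0 macrophages of either tumor.

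**Figure D3:**
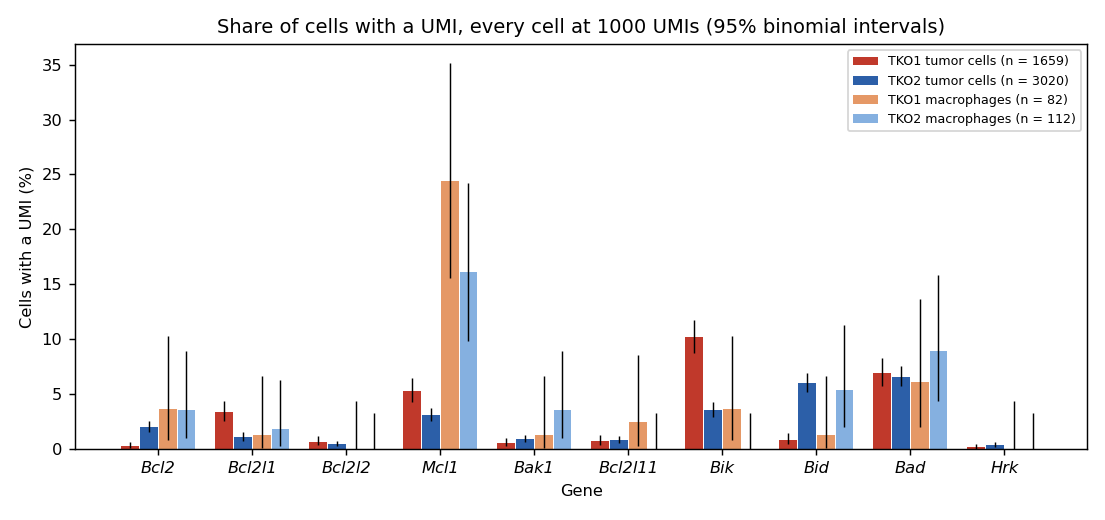
Percentage of tumor cells and macrophages with at least 1 UMI of each member after every cell was thinned to 1000 UMIs, with exact binomial 95% intervals as lines. *Mcl1* is seen in 24.4% and 16.1% of macrophages, and *Bik* and *Bid* exchange places between the tumor cells of TKO1 and TKO2.

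Most tumor cells had no UMI of any of the members of the anti-apoptotic and BH3-only groups at the fixed depth, 74.4% in TKO1 and 79.1% in TKO2, so cells could not be sorted by their balance of members. Variation across cells was measured by the Fano factor, the variance of the UMIs over their mean, which counting error alone puts at 1. *Bik* had a Fano factor of 1.40 in TKO1, above 93.3% of 6365 genes whose mean reached 0.02 UMIs and whose median was 1.15. In TKO2 it was 1.17, above 84.0% of 5416 genes with a median of 1.09. The mean of *Bik* was 0.128 UMIs in TKO1 and 0.0387 UMIs in TKO2. At equal relative variation the Fano factor rises with the mean, so these values do not rank the tumors by variation of *Bik*. The genes behind the percentages were not matched to *Bik* by mean. The percentages therefore do not show that *Bik* varied more than genes of its own level. *Bid* in TKO2 had 1.00, above only 2.84% of genes, although its mean was higher than that of *Bik*. *Mcl1* was near the median gene in TKO1 (1.17), and below it in TKO2 (1.07). *Bad* had 1.23 and 1.07. The other members fell under the minimum mean in at least 1 tumor.

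None of the members was among the 1000 variable genes that defined the clusters of a tumor, but the clusters rest on genes of the same cells, so the levels by cluster are a description. In TKO2 the level of *Bik* ran from 6 UMIs and 6.74 CPM (2.47 to 14.7) in cluster 5 to 125 UMIs and 139 CPM (116 to 166) in cluster 2. Cluster 2 was led by the keratins *Krt8* and *Krt18* among others, and *Bik* was itself among its 10 leading genes by fold. Clusters 7 (75.2 CPM) and 0 (48.4 CPM) followed, and clusters 1 and 4 had 10.0 and 7.30 CPM. Clusters 4 and 7 were both led by mitotic genes, and *Bik* was thus low in one of them and high in the other. In TKO1 *Bik* was high throughout, from 104 CPM (80.0 to 133) in cluster 6, led by mitotic genes, to 250.2 CPM (199.9 to 309) in cluster 7, led by *Mycl* and neurofilament genes.

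*Bid* had UMIs in all 8 clusters of TKO2, from 20.1 CPM (8.66 to 39.5) in cluster 7, led by mitotic genes, to 88.2 CPM (70.8 to 109) in cluster 1. In TKO1 it had 0 UMIs in 2 of 6 clusters and at most 7 UMIs in any other, with 17.7 CPM (6.48 to 38.4) in cluster 7. The interval of the lowest cluster of TKO2 therefore overlapped that of the highest of TKO1. So did the intervals of cluster 2 (39.1 CPM, 27.2 to 54.3) and cluster 5 (51.7 CPM, 37.8 to 68.9) of TKO2. *Bad* ran from 40.9 CPM (30.9 to 53.1) in cluster 4 of TKO2 to 108 CPM (87.8 to 132) in cluster 2, the cluster that was also highest in *Bik*. *Mcl1* kept within 24.8 to 52.3 CPM in TKO2 and 39.4 to 70.0 CPM in TKO1. *Bcl2* ran from 12.5 to 26.8 CPM in TKO2 and from 0 to 9.73 CPM in TKO1, where cluster 6 had the most, 6 UMIs.

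**Figure D4:**
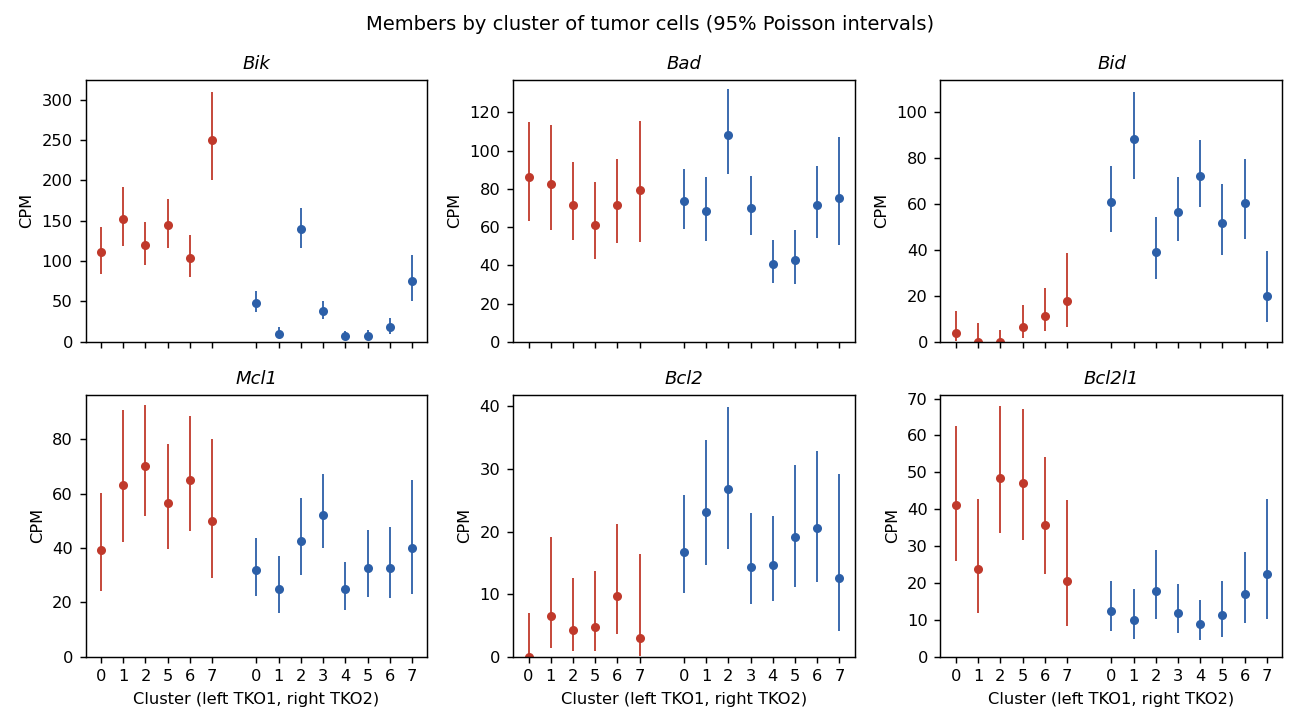
CPM of the 6 best covered members in each cluster of tumor cells, TKO1 in red and TKO2 in blue, with 95% Poisson intervals. *Bik* spans 6.74 to 139 CPM among the clusters of TKO2. The point value of *Bid* lies above the upper limit of every TKO1 cluster in 7 of the 8 clusters of TKO2. The intervals of clusters 2 and 5 of TKO2 reach below the highest of these limits.

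Over all 20 clusters of both tumors and all cell types, the genes most like each member were found by Pearson's r of log2(CPM + 10) among 6830 genes with at least 200 UMIs. These correlations share libraries and depth and are a description. *Bik* was most like *Krt8* (r = 0.96) and *St14* (0.96), a keratin and a protease of epithelial cells, and the values were 0.81 and 0.81 within TKO1 and 0.95 and 0.95 within TKO2. *Krt8* ran from 19.1 CPM in cluster 5 to 919.6 CPM in cluster 2 of TKO2 and from 1149 to 2028 CPM in tumor cell clusters of TKO1, with the lowest in cluster 6 and the highest in cluster 7. *Bik* and *Krt8* thus had the same lowest and the same highest cluster of tumor cells in each tumor. *Mcl1* was most like *Fth1*, the ferritin heavy chain (0.93), and *Ptpn18* (0.93), with macrophages highest in *Fth1* at 26186 and 18414 CPM.

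*Bid* was most like *Gm10260*, a gene model (0.96), and *Gnb2l1*, which encodes the ribosome-bound protein RACK1 (0.94). The values were lower within each tumor, at 0.87 and 0.85 within TKO1 and 0.71 and 0.67 within TKO2. *Gm10260* had 85.2 CPM in the tumor cells of TKO1 and 363 CPM in those of TKO2. The share of ribosomal protein genes moved with *Bid* in part. It was highest in cluster 7 among the tumor cells of TKO1 (17.5%), highest in cluster 1 of TKO2 (25.9%) and lowest in cluster 7 of TKO2 (19.2%), the same clusters in which *Bid* was highest or lowest. It was lowest in cluster 5 of TKO1 (8.54%), where *Bid* had 6.28 CPM, while *Bid* was at 0 in clusters 1 and 2 (9.90% and 10.1%). In TKO2, cluster 5 (24.6%) had less *Bid*, 51.7 CPM, than cluster 4 (22.4%), with 72.3 CPM. Its part in the difference in *Bid* was not tested. *Bcl2l1* was most like *Zc3h13* and *B630005N14Rik* (0.88 each), and *Bad* only loosely like *Tmem38b* (0.76) and *Cyb5a* (0.76). For *Bcl2l1* the values with *Zc3h13* and *B630005N14Rik* were 0.71 and 0.89 within TKO1 and 0.61 and 0.89 within TKO2. The other 5 members had fewer than 200 UMIs.

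Tumor cells were also grouped within each tumor by their UMIs of 5 lists of state genes at the fixed depth, which gave 50 pairs of a member and a state in each tumor. The interval of the log2 ratio lay off 0 in 4 of the 50 pairs of TKO1 and 3 of the 50 pairs of TKO2, few enough that counting error over 50 intervals bears on each. *Bik* was lower in cells rich in mitosis genes in both tumors, a pair chosen after its values were seen. The clusters of TKO2 did not follow this, since cluster 7, with the highest summed level of mitosis genes (7186 CPM), had 75.2 CPM of *Bik* against 38.5 CPM in all tumor cells. In TKO1 it had 20 UMIs in 298 such cells (67.1 CPM) and 162 in 1132 cells without a mitosis UMI (143 CPM), a log2 ratio of -1.09 (-1.84 to -0.42). In TKO2 it had 19 UMIs in 746 cells (25.5 CPM) and 78 in 1505 cells (51.8 CPM), a log2 ratio of -1.02 (-1.83 to -0.29). *Mcl1* had 57.0 and 57.4 CPM in the same groups of TKO1 and 40.2 and 26.6 CPM in those of TKO2, where the interval of the log2 ratio, -0.14 to 1.32, included 0.

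The groups of TKO1 lack clusters 3 and 4. Cluster 4 had the highest summed hypoxia and integrated stress response levels of that tumor, 10479 and 5093 CPM. The highest among the clusters kept were 7341 and 2931 CPM, in cluster 2. Cluster 4 had 82.4 CPM of *Bik* and 80.2 CPM of *Mcl1*. Cluster 3 had the highest interferon level, 1585 CPM. In the cells kept, the intervals of *Bik* and *Mcl1* for hypoxia and integrated stress response genes included 0 in both tumors. Members with few UMIs had intervals off 0 there. *Bcl2* in TKO2 had 2 UMIs in cells rich in integrated stress response genes and 51 in cells poor in them, a log2 ratio of -2.44 (-5.52 to -0.51). *Bcl2l2* in TKO1 had 7 UMIs in cells rich in hypoxia genes and 0 in cells poor in them, with a lower limit of 0.88. The remaining pairs off 0 were *Bcl2l11* in S phase in TKO2 (6 and 2 UMIs) and *Bad* with interferon genes in TKO1 (43 and 91 UMIs, log2 ratio 0.60, 0.04 to 1.14). In TKO1, cells rich in hypoxia genes had 104 CPM of *Bik* and 58.4 CPM of *Mcl1*, and cells poor in them 123 and 49.6 CPM. In TKO2 the values were 33.6 and 47.1 CPM for *Bik* and 33.6 and 37.4 CPM for *Mcl1*. *Bad* in TKO1, likewise chosen after its values were seen, was higher in cells rich in S phase genes, at 114 against 66.9 CPM (log2 ratio 0.77, 0.05 to 1.47). In TKO2 the same comparison gave 97.6 and 73.3 CPM, with an interval of -0.19 to 1.00.

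In TKO2 the 107 tumor cells with a *Bik* UMI had 23 UMIs of *Bad* (215 CPM), against 190 in the 2913 cells without one (65.2 CPM), a log2 ratio of 1.72 (1.03 to 2.35). *Krt8* was higher in them too, at 766 against 318 CPM, but *St14* was not, at 18.7 against 18.9 CPM on 2 UMIs in the cells with *Bik*. In TKO1 *Krt8* had 1799 against 1446 CPM and *St14* 53.3 against 69.8 CPM. The intervals of the members other than *Bad* included 0 in both tumors. In TKO1 the 169 cells with a *Bik* UMI had 8 UMIs of *Bad*, 47.3 against 84.6 CPM, and the interval of -2.08 to 0.19 included 0. The interval thus lay above 0 in TKO2 and not in TKO1, and the difference between the tumors was not tested. *Bik* and *Bid* were seen together in 9 cells of TKO2 and in 0 of TKO1, where *Bid* was seen in 14 cells in all.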

How the data were processed

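The authors deposited, per the file headers and labels, whole-number UMI counts per gene and barcode of 1 library per tumor, not normalized. The processing notes name Cell Ranger, Seurat and the build mm10; versions, annotation and strand setting are not given in the sources used here. Gene symbols came from the deposited lists, and positions from GENCODE M21 (GRCm38), which held 27722 of the 27998 identifiers. Members and gene lists were chosen with earlier results of these data known.

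Barcodes with more than 500 detected genes and under 10% mitochondrial UMIs were kept. Each tumor was clustered with Seurat 5.3.0 (R 4.3.3; 1000 variable genes, 10 components, resolution 0.8), and clusters were named from fixed markers. A cluster needed at least 3 markers at least 4-fold above the other cells, or, for the neuroendocrine type, 2-fold above macrophages. Clusters with more markers of another type than neuroendocrine ones among their 10 leading genes were left unnamed, a rule set after the clusters were seen. Doublets were scored with Scrublet (scanpy 1.11.5), which called 0 cells, so none was removed in the main analysis.

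UMIs were summed per cell type and divided by the group total to give CPM, with exact Poisson intervals. Ratios have exact conditional binomial intervals, and shares exact Clopper-Pearson ones. A gene with at least 10 UMIs over both groups was called past 2-fold relative to the median log2 ratio of all such genes. In comparisons with macrophages or club cells, where few cells leave many genes at 0, the median was taken over genes expected to have at least 10 UMIs in each group, which departs from the plan. A fold against 0 UMIs uses a floor of 3 UMIs per group. Cells were thinned to 1000 UMIs with seed 1. Alternatives changed the scaling, cell filter, choice of tumor cells, doublets, UMI minimum, clustering and depth. Named genes were the members, genes of the 2 lists with at least 100 UMIs or past 2-fold, markers, state genes and the 2 genes most like each member. *Krt18* and *Mycl*, among leading genes of clusters, and *Bcl2a1b* were named after their values were seen, as were the deleted genes. edgeR 4.0.16 gave only the TMM factors of 1 alternative. Calculations used Python 3.11.15, numpy 2.4.6, scipy 1.17.1, pandas 2.3.3 and matplotlib 3.10.9, and were tested on simulated counts. Some genes of the lists are not reported here.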

Additional observations from a re-analysis of the deposited data

Results flagged for a closer look

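Members were also counted in barcodes and clusters that no comparison used, above the level that a count of 3 UMIs would give. In the 1321 barcodes of TKO1 with 500 or fewer detected genes the members summed to 394 CPM (349 to 443), and in the 248 such barcodes of TKO2 to 258 CPM (190.1 to 342). *Bik* had 150.3 CPM in those of TKO1 and 26.9 CPM in those of TKO2, and *Bcl2* 22.3 CPM (12.7 to 36.2) and 43.0 CPM (18.6 to 84.7), above the level in tumor cells in TKO1 and overlapping it in TKO2. The unnamed clusters of TKO1 summed to 353 CPM in cluster 3 (382 cells, led by *Anxa1* and with the fibroblast marker *Dcn*) and 290.4 CPM in cluster 4 (370 cells, with ciliated markers and stress genes). *Bik* had 144 and 82.4 CPM there and *Bid* 1 UMI in each. Cluster 9 of TKO2 (66 cells, with club and neuroendocrine markers) summed to 409.9 CPM (303 to 542), with 19 UMIs of *Bad* (159 CPM) and 0 of *Bcl2*.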

How the results depend on the processing

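No paired analysis was possible because each tumor has 1 library. The 2 members higher in TKO1 and the 3 higher in TKO2 kept these numbers within 1.5 times under all 11 alternatives, and no member past 2-fold changed sign. A change between 2 and 3 members meets that limit, so it is a loose one. *Bcl2l2* passed 2-fold unshifted, at 1.11, and *Bak1* without the highest Scrublet scores, at -1.21. Of the 12721 genes, 3795 were past 2-fold in TKO1 and 1501 in TKO2 unshifted, against 2825 and 2270 in the main setting. *Bid* ranged from -3.96 to -3.38 and *Bik* from 1.38 to 1.84 over them. The unshifted ratio and the return of clusters 3 and 4 of TKO1 were chosen after seeing the data. Of the other apoptosis genes, 3 were higher in TKO2. Their number was 0 with CPM as it is, and 1 each with a total free of mitochondrial and ribosomal protein genes, with cells of more than 1000 detected genes and at resolution 0.4. Members higher in macrophages of TKO2 fell from 5 to 2, and those higher in club cells from 6 to 2, with CPM as it is and with a total free of those genes. In both settings the ratios lack the shift by the median, which lowers those of macrophages and club cells by its size. The causes of the other changes were not tested. The share of tumor cells with any anti-apoptotic member was 5.14% and 3.52% at 500 UMIs, 21.2% and 11.2% at 2000 UMIs (415 and 1665 cells) and 14.0% and 13.3% without thinning, in TKO1 and TKO2. The Fano factor of *Bik* was 1.18 and 1.11 at 500 UMIs and 1.50 at 2000 UMIs in TKO1. Depth limits *Hrk*, *Bcl2l2*, *Bak1* and *Bcl2l11*, and most counts in macrophages and club cells.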
